A study of Mus musculus with 16 samples.

Results

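The costimulatory and checkpoint ligands described here are surface proteins through which a dendritic cell (DC) addresses T cells. They are encoded by Cd80, Cd86, Cd274, Pdcd1lg2, Icosl, Cd70, Tnfsf4, Tnfsf9, Cd40 and Cd83. The genes were taken by name, each from the array probe set with the highest mean signal among those that carry its symbol alone. All 10 were measured, out of 19938 genes on the array, and only Cd80 had more than 1 such probe set.

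A T cell that meets its antigen on an MHC molecule also needs a costimulatory signal. CD80 and CD86, the classical B7 proteins, give it through CD28 and are also bound by the inhibitory receptor CTLA-4, while PD-L1 (Cd274) and PD-L2 (Pdcd1lg2) restrain T cells through PD-1. Ligands of the TNF family (Cd70, Tnfsf4, Tnfsf9) sustain T cells after priming, and DCs are known to raise many of these genes once they sense microbial products or interferon.

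The arrays were of the type Affymetrix Mouse Gene 1.0 ST, 16 in number, with RNA of sorted classical DCs in 8 groups of 2. All mice were of the B6 strain and carried Zbtb46 GFP/+, that is, 1 GFP allele of a gene whose transcription factor marks classical DCs. Knockout mice (KO) were Ciita -/- and wild-type mice (WT) Ciita +/+, where Ciita is the transactivator of the MHC class II genes. Bone marrow cultures came from 4 mice and spleens from 4 other mice, and both subsets were sorted from every mouse. The groups were thus cultured CD24+ cells of KO and of WT mice, cultured CD172a+ cells of KO and of WT mice, and the same 4 kinds of cell from spleen. Marrow cells spent 9 days with 5% Flt3l, the DC growth factor, and were then activated with gamma interferon and, for 4 hours, with LPS, a bacterial cell wall product that triggers Tlr4. The labels give 16 hours of gamma interferon in one place and 22 hours in another. Ages are not given, the deleted stretch of Ciita is not named, and cultures without activation are not among the groups.

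The cell type labels were checked against marker genes. The mean log2 signal of 12 markers of cDC1, the subset sorted as CD24+, was 10.68 to 11.05 in cultured CD24+ cells, against 8.89 to 9.13 in cultured CD172a+ cells, and 12.10 to 12.30 in spleen CD24+ cells, against 8.81 to 8.94 in spleen CD172a+ cells. The mean of 12 markers of cDC2, the subset sorted as CD172a+, separated spleen (7.92 to 8.15 in CD24+ cells, 10.29 to 10.37 in CD172a+ cells) much better than culture (6.78 to 6.87 in CD24+ cells, 7.06 to 7.30 in CD172a+ cells). Sirpa, which encodes CD172a, did separate the cultured subsets, with 8.36 to 9.17 in CD24+ cells and 11.07 to 11.37 in CD172a+ cells. Ciita itself was 9.70, 8.14, 8.35 and 7.17 on the cultured KO arrays, against 10.15 to 10.85 on the cultured WT arrays, while the 8 spleen arrays of both genotypes spanned 10.90 to 11.40. As the deleted stretch is not named, the spleen signal of this probe set checks nothing. H2-Ab1, a class II gene, was lower on every KO array than on every WT array (9.38 to 12.18 against 13.68 to 14.07). Array medians were 6.85 to 6.92 in culture and 7.29 to 7.32 in spleen. Xist, expressed from the inactive X chromosome of females, was 4.98 to 5.29 in culture and 11.82 to 12.43 in spleen, and the Y-linked Kdm5d was 7.63 to 7.99 in culture and 5.09 to 5.32 in spleen. Differences between culture and spleen thus also separate these sex-linked genes, and activation, culture, tissue, sex and the authors' normalization cannot be told apart in them. The mean of 7 measured B cell markers was 6.10 to 6.25 in culture and 7.11 to 7.65 in spleen, and that of 5 T cell markers was 6.28 to 6.66 in culture and 7.61 to 8.0 in spleen. Of the B cell genes, Ms4a1 was 5.19 to 5.73 in culture and 8.51 to 9.70 in spleen, and Cd22 6.17 to 6.46 and 8.33 to 11.34. Cd79b was 6.89 to 7.22 and 7.76 to 9.02. The others did not rise alike in spleen, and their ranges overlapped or were lower there. Cd79a was 4.44 to 4.93 in culture and 4.74 to 5.27 in spleen, and Ighm 7.08 to 7.28 and 7.14 to 8.02. Pax5 was 6.76 to 6.90 and 6.72 to 6.95, and Ebf1 5.50 to 5.81 and 5.30 to 5.51. The median culture minus spleen difference of the B cell markers was -0.38 in CD24+ cells and -0.19 in CD172a+ cells. Over all genes these medians were -0.34 and -0.28. The part of B cells and T cells in the differences between culture and spleen was not tested.

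Activated cultured DCs had higher signals of nearly all of the ligands than spleen DCs. In CD24+ cells 9 of 10 were higher and 1 was lower, in a comparison that called 79.1% of all genes, 13.8% higher and 65.3% lower. In CD172a+ cells 8 of 10 were higher and 1 was lower, where 76.8% of all genes were called, 16.6% higher and 60.2% lower. Here and below, a gene was called where its limma p, Benjamini-Hochberg adjusted over 19938 genes, was below 0.05. The median change of the 10 genes was 1.90 on the log2 scale in CD24+ cells and 1.58 in CD172a+ cells, while the median over all genes was -0.34 and -0.28. Since the median gene was itself shifted, culture minus spleen changes below are given relative to it, while their p-values test the deposited difference. Subtracting each array's median instead turned the balance over all genes to 8823 higher and 6221 lower in CD24+ cells, against 2750 and 13012 as deposited. In CD172a+ cells it gave 9313 higher and 6201 lower, against 3312 and 12000. The counts of ligands called higher stayed at 9 and 8 under that scaling and under quantile normalization. Quantile normalization called 8037 of all genes higher in CD24+ cells and 8572 in CD172a+ cells. In bulk samples such as these, fewer expressing cells and less RNA per cell cannot be told apart.

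**Figure D1:**
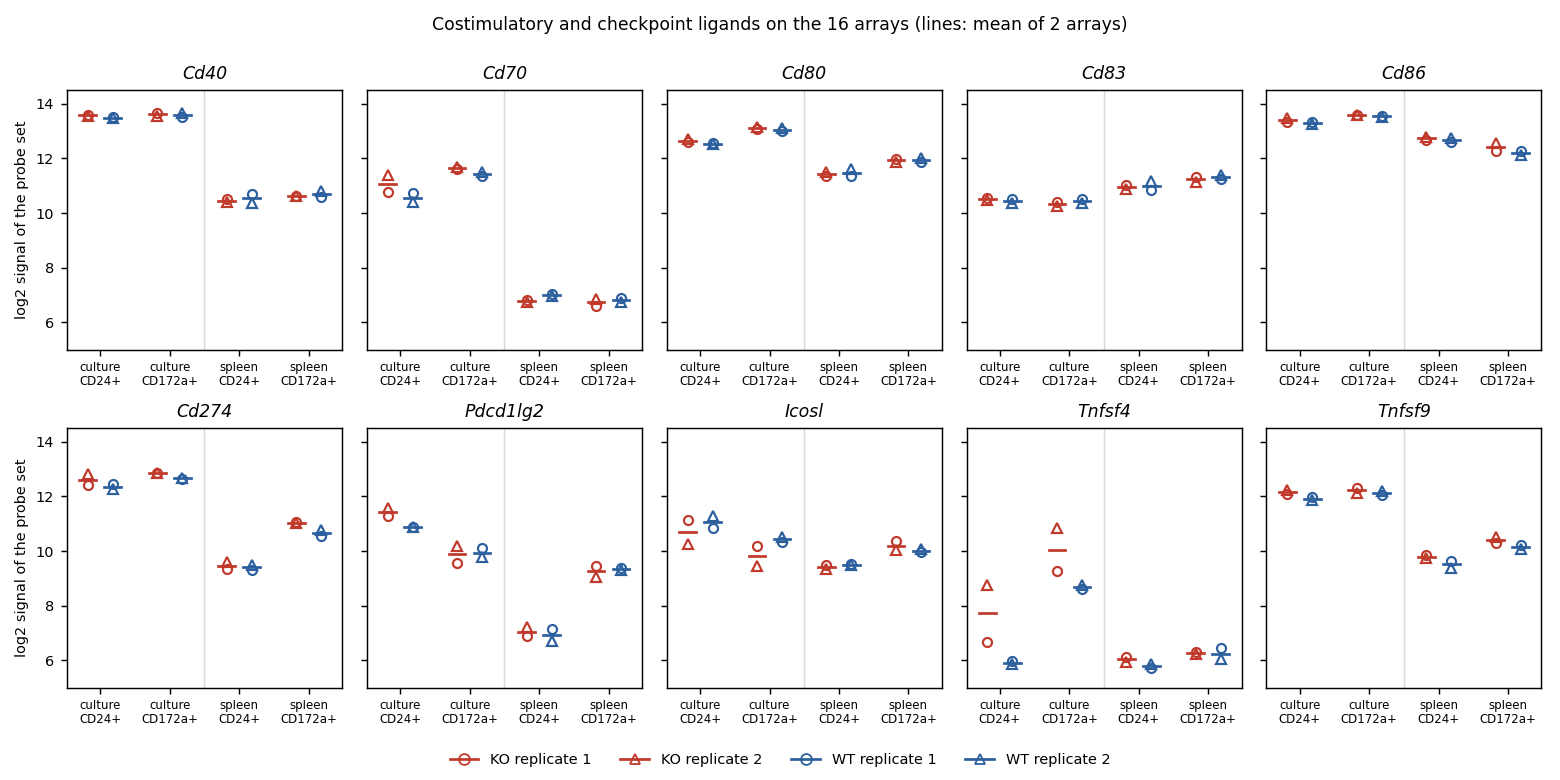
Log2 signal of each of the 10 ligand genes (vertical axis) on the 16 arrays, by culture or spleen and by CD24+ or CD172a+ sort, with KO arrays in red left of WT arrays in blue; circles are replicate 1, triangles replicate 2 and lines the mean of 2 arrays. Cd40, Cd70, Cd80, Cd86, Cd274, Pdcd1lg2 and Tnfsf9 lie higher in culture than in spleen without overlap. Cd83 is the gene that lies lower in culture, also without overlap, and Tnfsf4 is highest in cultured CD172a+ cells.

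**Figure D2:**
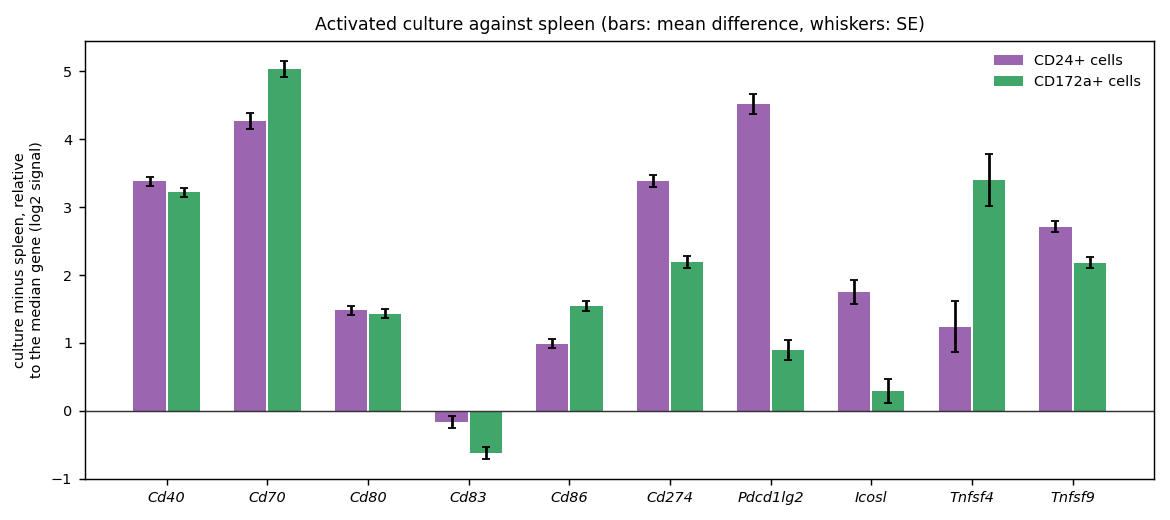
Culture minus spleen difference of each ligand gene on the log2 scale, relative to the median gene (vertical axis), in CD24+ cells (purple) and CD172a+ cells (green); bars are differences of means over 4 and 4 arrays and whiskers are standard errors. The longest bars are those of Cd70 in CD172a+ cells (5.04) and Pdcd1lg2 in CD24+ cells (4.52), and Cd83 is below 0 in both subsets.

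The ligands also differed between the subsets, and differently in the 2 tissues. In culture, 2 of 10 were higher and 4 lower in CD24+ than in CD172a+ cells (24.9% of all genes were called, 11.2% higher and 13.7% lower). In spleen 1 was higher and 6 were lower (29.1% of all genes, 15.6% higher and 13.4% lower). Macrophage and monocyte markers moved with the spleen subsets: of 7 measured, none was higher and 5 were lower in spleen CD24+ than in spleen CD172a+ cells, and their mean was 7.41 to 7.82 in spleen CD24+ cells, against 8.44 to 9.35 in spleen CD172a+ cells. In culture 1 was higher and 2 were lower, and the mean was 6.96 to 6.97 in CD24+ cells, against 7.15 to 7.22 in CD172a+ cells. Other marker lists also differed between the spleen subsets. Of 6 plasmacytoid DC markers 4 were higher and 1 was lower in spleen CD24+ cells. Of 8 neutrophil markers 3 were higher and 0 lower, and of 5 NK cell markers 3 were higher and 0 lower. Of 7 B cell markers 1 was higher and 2 were lower, and of 5 T cell markers 0 were higher and 1 was lower. The part of these markers in the subset differences of the ligands was not tested. The difference between these subset differences, culture minus spleen, was called for 8 of 10 genes, against 28.2% of all genes, with 5 higher and 3 lower (12.5% and 15.7% of all genes). Of these 8, Cd274, Pdcd1lg2, Icosl, Cd83 and Tnfsf9 shifted towards CD24+ cells in culture, and Cd70, Cd86 and Tnfsf4 shifted towards CD172a+ cells.

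**Figure D3:**
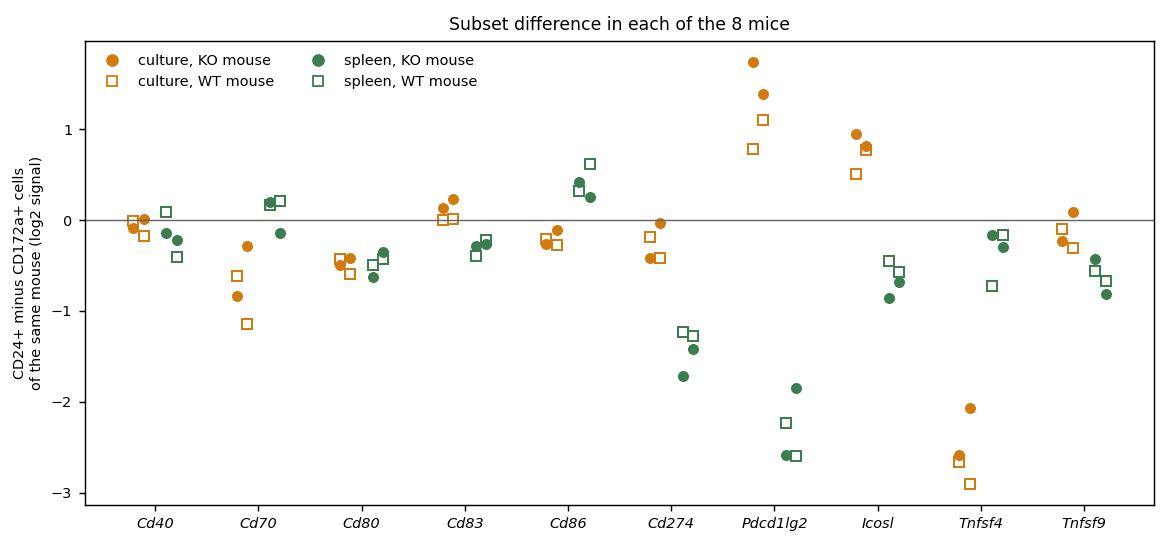
CD24+ minus CD172a+ log2 signal within each of the 8 mice (vertical axis) for the 10 ligand genes, with culture mice in orange left of spleen mice in green, KO mice as filled circles and WT mice as open squares. All 4 culture mice lie above 0 and all 4 spleen mice below 0 for Pdcd1lg2 and Icosl, the reverse holds for Cd86, and Tnfsf4 is far below 0 in the culture mice.

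Among the B7 ligands of CD28, Cd80 had subset differences of like size in culture and in spleen. Cd80 was 12.59 and 12.71 in KO and 12.57 and 12.52 in WT cultured CD24+ cells, and 13.09 and 13.14 in KO and 13.00 and 13.11 in WT cultured CD172a+ cells. In spleen it was 11.36 and 11.51 in KO and 11.36 and 11.60 in WT CD24+ cells, and 11.99 and 11.86 in KO and 11.85 and 12.03 in WT CD172a+ cells. Every CD24+ array lay below every CD172a+ array of its tissue, and every culture array lay above every spleen array. The subset difference was -0.49 ± 0.07 in culture (SE, 4 arrays against 4, limma adjusted p = 2.68e-04) and -0.48 ± 0.07 in spleen (adjusted p = 2.25e-04). The difference between them was -0.01, with a 95% interval from -0.23 to 0.21 (limma adjusted p = 0.951). Culture minus spleen was 1.48 ± 0.07 in CD24+ cells (limma adjusted p = 1.39e-08) and 1.43 ± 0.07 in CD172a+ cells (adjusted p = 1.2e-08), relative to the median gene. A second Cd80 probe set, not used in the tests, differed in the same directions, by -0.49 between subsets in culture and -0.66 in spleen.

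Cd86, the B7 ligand that DCs hold ready before activation, turned its subset difference round between the tissues. It was 13.33 and 13.49 in KO and 13.34 and 13.27 in WT cultured CD24+ cells, against 13.59 and 13.59 in KO and 13.55 and 13.53 in WT cultured CD172a+ cells. The spleen signals were 12.68 and 12.80 in KO and 12.60 and 12.74 in WT CD24+ cells, against 12.27 and 12.55 in KO and 12.28 and 12.13 in WT CD172a+ cells. In neither tissue did the subsets overlap, with CD24+ cells lower in all 4 culture mice and higher in all 4 spleen mice. The subset difference was -0.21 ± 0.07 in culture (limma adjusted p = 0.0456) and 0.40 ± 0.07 in spleen (adjusted p = 8.72e-04), and the 2 differed by -0.61 ± 0.10 (adjusted p = 5.82e-04). The culture difference alone was close to the threshold. It was no longer called with array medians subtracted (adjusted p = 0.061), nor without any 1 of 7 of the 8 culture arrays, the exception being CD24+ KO replicate 2, when it lay between -0.23 and -0.17, nor without both arrays of culture KO replicate 2 (-0.25, adjusted p = 0.0553). Cd86 was also higher in culture than in spleen, by 0.99 ± 0.07 in CD24+ cells (limma adjusted p = 2.8e-06) and by 1.54 ± 0.07 in CD172a+ cells (adjusted p = 5.15e-09) relative to the median gene, and by 0.65 in CD24+ cells as deposited.

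The genes of the PD-1 ligands lie side by side on chromosome 19, with no protein-coding gene between them in RefSeq (GRCm38.p6), and for both the subset difference was larger in size in spleen than in culture. Their promoters are shown because the pair differed in how it moved between subsets. Each sequence is the RefSeq window from 250 bases before to 50 bases after a transcript start, read 5′ to 3′ on the gene's strand, and the Cd274 start used lies inside the RefSeq gene. Capitals mark matches to the IRF core AANNGAAA or to the NF-kB consensus, both strands searched.
Cd274 (chr19:29367188-29367487, + strand): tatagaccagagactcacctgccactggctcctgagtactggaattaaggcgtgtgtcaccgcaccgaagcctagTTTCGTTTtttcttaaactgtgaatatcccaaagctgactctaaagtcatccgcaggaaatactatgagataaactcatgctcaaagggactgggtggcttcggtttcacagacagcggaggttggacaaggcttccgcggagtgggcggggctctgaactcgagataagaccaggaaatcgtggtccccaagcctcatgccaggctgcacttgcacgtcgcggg
Pdcd1lg2 (chr19:29410669-29410968, + strand): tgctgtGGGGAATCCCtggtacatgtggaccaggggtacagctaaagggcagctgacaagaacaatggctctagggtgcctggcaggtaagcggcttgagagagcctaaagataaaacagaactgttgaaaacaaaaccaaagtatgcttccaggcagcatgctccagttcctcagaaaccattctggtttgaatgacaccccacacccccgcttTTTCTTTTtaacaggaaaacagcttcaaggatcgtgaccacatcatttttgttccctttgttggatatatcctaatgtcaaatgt

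Both windows held an IRF core match on the opposite strand, whose leftmost base was at -175 in Cd274 and at -35 in Pdcd1lg2 relative to the start. That motif occurs in 23.9% of the 32851 promoters of the table. Pdcd1lg2 also held an NF-kB match at -244, a palindrome-like stretch that matched on both strands, and NF-kB matches occur in 8.46% of promoters. The interferon response element core (3.44% of promoters), the GAS motif TTCNNNGAA (8.3%) and the AP-1 motif TGANTCA (7.81%) had no match in either window.

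Pdcd1lg2, which encodes PD-L2, had its highest signals in cultured CD24+ cells and its lowest in spleen CD24+ cells. It was 11.30 and 11.58 in KO and 10.88 and 10.87 in WT cultured CD24+ cells, against 9.56 and 10.19 in KO and 10.10 and 9.77 in WT cultured CD172a+ cells. Spleen signals were 6.88 and 7.21 in KO and 7.13 and 6.70 in WT CD24+ cells, against 9.46 and 9.06 in KO and 9.37 and 9.30 in WT CD172a+ cells. The subsets did not overlap in either tissue, and their order was opposite. The subset difference was 1.25 ± 0.15 in culture, a 2.39-fold higher signal in CD24+ cells (limma adjusted p = 7.28e-05), and -2.31 ± 0.15 in spleen, a 4.97-fold lower one (adjusted p = 1.7e-07). The difference between the 2 was 3.57 ± 0.21 (limma adjusted p = 1.77e-07). Relative to the median gene, culture minus spleen was 4.52 ± 0.15 in CD24+ cells (adjusted p = 1.26e-10) and 0.89 ± 0.15 in CD172a+ cells (adjusted p = 0.00278). The last of these was 0.61 as deposited, 1.01 with array medians subtracted and 1.09 after quantile normalization, so its size depended on the scaling.

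Cd274, which encodes PD-L1, was also lower in CD24+ than in CD172a+ cells of the spleen, and much closer between the subsets in culture. It was 12.42 and 12.81 in KO and 12.45 and 12.27 in WT cultured CD24+ cells, against 12.84 and 12.85 in KO and 12.64 and 12.69 in WT cultured CD172a+ cells. In spleen Cd274 was 9.33 and 9.59 in KO and 9.31 and 9.50 in WT CD24+ cells, against 11.05 and 11.01 in KO and 10.54 and 10.78 in WT CD172a+ cells. The spleen subsets were far apart, while the cultured subsets overlapped through CD24+ KO replicate 2 (12.81). Spleen CD24+ and CD172a+ cells differed by -1.41 ± 0.09, a 2.66-fold lower signal in CD24+ cells (limma adjusted p = 1.92e-07). In culture it was -0.27 ± 0.09 (adjusted p = 0.0587), which became -0.36 without both arrays of culture KO replicate 2 (adjusted p = 0.015). The difference between the tissues was 1.15 ± 0.13 (limma adjusted p = 4.28e-05). Culture minus spleen was 3.39 ± 0.09 in CD24+ cells (adjusted p = 3.42e-11) and 2.19 ± 0.09 in CD172a+ cells (adjusted p = 1.56e-09), relative to the median gene.

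Icosl, whose product binds ICOS on activated and follicular T cells, also had opposite subset orders in culture and in spleen. Its RefSeq promoter window is shown for comparison with those of the PD-1 ligands, with capitals marking an NF-kB match on the opposite strand at -111 and with no match to the IRF core.
Icosl (chr10:78069118-78069417, + strand): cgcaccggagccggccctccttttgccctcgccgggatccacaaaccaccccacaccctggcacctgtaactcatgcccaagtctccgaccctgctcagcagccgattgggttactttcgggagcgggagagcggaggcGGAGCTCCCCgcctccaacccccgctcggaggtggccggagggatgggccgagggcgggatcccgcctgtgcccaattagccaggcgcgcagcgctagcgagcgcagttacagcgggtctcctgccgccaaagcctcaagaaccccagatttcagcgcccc

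Icosl was 11.12 and 10.27 in KO and 10.85 and 11.27 in WT cultured CD24+ cells, against 10.17 and 9.46 in KO and 10.34 and 10.51 in WT cultured CD172a+ cells. In spleen Icosl was 9.49 and 9.35 in KO and 9.51 and 9.49 in WT CD24+ cells, against 10.35 and 10.04 in KO and 9.96 and 10.06 in WT CD172a+ cells. The cultured subsets overlapped through CD24+ KO replicate 2 (10.27), although CD24+ cells were higher within all 4 culture mice. In spleen CD24+ cells were lower in all 4 mice, without overlap. The subsets differed by 0.76 ± 0.18 in culture (limma adjusted p = 0.00867, or 0.0618 from culture arrays alone) and -0.64 ± 0.18 in spleen (adjusted p = 0.0192), and the 2 differed by 1.40 ± 0.26 (adjusted p = 0.00149). The spleen call was lost without spleen CD172a+ KO replicate 1 (-0.56), CD24+ KO replicate 2 (-0.61), CD24+ WT replicate 1 (-0.65) or CD172a+ WT replicate 2 (-0.62). Relative to the median gene Icosl was higher in cultured CD24+ cells by 1.75 ± 0.18 (limma adjusted p = 1.43e-05), while in CD172a+ cells it was not called and its size depended on the scaling. There it was 0.29 ± 0.18 relative to the median gene and 0.02 as deposited, with a 95% interval from -0.38 to 0.42 (limma adjusted p = 0.936). It was 0.41 with array medians subtracted (adjusted p = 0.0652) and 0.37 after quantile normalization (adjusted p = 0.0538).

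Among the ligands of the TNF family, Cd70, whose product binds CD27, had the largest culture minus spleen difference of the 10 genes in CD172a+ cells and the second largest in CD24+ cells. It was 10.76 and 11.39 in KO and 10.74 and 10.39 in WT cultured CD24+ cells, and 11.60 and 11.68 in KO and 11.36 and 11.52 in WT cultured CD172a+ cells. In spleen CD24+ cells it was 6.81 and 6.73 in KO and 7.05 and 6.95 in WT, and in spleen CD172a+ cells 6.61 and 6.86 in KO and 6.89 and 6.74 in WT. All spleen signals thus lay below the array median and all culture signals far above it, and the cultured subsets overlapped through CD24+ KO replicate 2. Culture minus spleen was 4.27 ± 0.12 in CD24+ cells (limma adjusted p = 4.01e-11) and 5.04 ± 0.12 in CD172a+ cells (adjusted p = 5.9e-12), relative to the median gene. In culture CD24+ cells were lower in all 4 mice, by 0.29 to 1.14, a difference of -0.72 ± 0.12 (limma adjusted p = 8.75e-04). In spleen the subsets overlapped and differed by 0.11 ± 0.12 (adjusted p = 0.586), and the difference between the tissues was -0.83 ± 0.17 (adjusted p = 0.00344).

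Tnfsf4, which encodes OX40L, had its highest signals in cultured CD172a+ cells and lower signals elsewhere. It was 6.68 and 8.76 in KO and 5.97 and 5.86 in WT cultured CD24+ cells, against 9.28 and 10.83 in KO and 8.62 and 8.76 in WT cultured CD172a+ cells. In spleen Tnfsf4 was 6.13 and 5.94 in KO and 5.71 and 5.88 in WT CD24+ cells, and 6.29 and 6.24 in KO and 6.44 and 6.04 in WT CD172a+ cells. The spleen values lay below the array median, as did those of cultured CD24+ cells apart from KO replicate 2. The subset difference in culture was -2.56 ± 0.38, a 5.88-fold lower signal in CD24+ cells, seen in all 4 mice (limma adjusted p = 3.59e-04). In spleen it was -0.34 ± 0.38 (limma adjusted p = 0.578) and lay between -0.73 and -0.16 in the 4 mice. The limma adjusted p was 0.0448 with the mouse as a block and 0.0185 from spleen arrays alone, so this call depended on the fit. The difference between the tissues was -2.22 ± 0.54 (adjusted p = 0.00871). Culture minus spleen was 3.40 ± 0.38 in CD172a+ cells (limma adjusted p = 9.38e-06). In CD24+ cells it was 1.24 ± 0.38 relative to the median gene (adjusted p = 0.0474), or 0.90 as deposited. The deposited change was 0.38 without culture CD24+ KO replicate 2 (adjusted p = 0.206) and 1.42 without culture CD24+ KO replicate 1 (adjusted p = 3.41e-04), and the call was lost without any 1 of 7 of the 8 CD24+ arrays.

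Tnfsf9, the ligand of Tnfrsf9 and the neighbour of Cd70 on chromosome 17, was higher in culture and differed between the subsets in spleen. It was 11.88 to 12.22 in cultured CD24+ cells and 12.05 to 12.31 in cultured CD172a+ cells, against 9.39 to 9.85 in spleen CD24+ cells and 10.06 to 10.53 in spleen CD172a+ cells. The cultured subsets overlapped and the spleen subsets did not. The subsets differed by -0.14 ± 0.08 in culture (limma adjusted p = 0.29) and -0.62 ± 0.08 in spleen (adjusted p = 1.01e-04), and the tissues differed by 0.48 ± 0.12 (adjusted p = 0.00851). Culture minus spleen was 2.71 ± 0.08 in CD24+ cells (limma adjusted p = 8.85e-11) and 2.18 ± 0.08 in CD172a+ cells (adjusted p = 5e-10), relative to the median gene.

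Cd40, the receptor through which helper T cells license a DC, was far higher in culture and had no called subset difference in either tissue. It was 13.59 and 13.56 in KO and 13.52 and 13.47 in WT cultured CD24+ cells, and 13.68 and 13.55 in KO and 13.53 and 13.65 in WT cultured CD172a+ cells. In spleen it was 10.38 to 10.70 in CD24+ cells and 10.60 to 10.79 in CD172a+ cells. Culture and spleen were thus wide apart, and the subsets overlapped in each. Culture minus spleen was 3.38 ± 0.07 in CD24+ cells (limma adjusted p = 4.87e-12) and 3.22 ± 0.07 in CD172a+ cells (adjusted p = 4.12e-12), relative to the median gene. The subset difference was -0.07 ± 0.07 in culture (adjusted p = 0.6) and -0.17 ± 0.07 in spleen (adjusted p = 0.112). Without spleen CD24+ WT replicate 1 the spleen difference was -0.25 and was called (adjusted p = 0.0181).

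Cd83, a surface protein known to keep MHC class II and CD86 at the cell surface by opposing the ubiquitin ligase MARCH1, was the 1 gene with lower signals in culture. It was 10.38 to 10.55 in cultured CD24+ cells and 10.24 to 10.51 in cultured CD172a+ cells, against 10.83 to 11.18 in spleen CD24+ cells and 11.15 to 11.40 in spleen CD172a+ cells. Every culture array lay below every spleen array. In CD172a+ cells the change relative to the median gene was -0.62 ± 0.09 (limma adjusted p = 8.8e-07). In CD24+ cells it was -0.17 ± 0.09 relative to the median gene, -0.51 as deposited (adjusted p = 1.36e-04) and -0.08 with array medians subtracted (adjusted p = 0.442), so this call depended on the scaling. Marchf1, which encodes the ligase, was also lower in culture relative to the median gene, by -0.64 ± 0.06 in CD24+ cells and by -0.75 ± 0.06 in CD172a+ cells. Of 5 genes listed for the surface turnover of class II and Cd86, H2-DMa and Cd74, which load and chaperone class II molecules, were the 2 called between genotypes, lower in KO in all 4 populations. Between subsets Cd83 differed by 0.09 ± 0.09 in culture (limma adjusted p = 0.522) and by -0.29 ± 0.09 in spleen (adjusted p = 0.022), with a difference between the tissues of 0.39 ± 0.12 (adjusted p = 0.032). The spleen call was lost without spleen CD172a+ KO replicate 1 (-0.25), CD24+ KO replicate 2 (-0.25), CD24+ WT replicate 1 (-0.20) or CD172a+ WT replicate 2 (-0.25), and the difference between tissues was 0.30 to 0.36 and not called without any 1 of these or of CD24+ KO replicate 1, CD24+ WT replicate 1, CD172a+ KO replicate 2 and CD172a+ WT replicate 2 of culture.

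The study asks which transcripts depend on Ciita, and none of the 10 ligand genes was called between KO and WT. The count was 0 of 10 in cultured CD24+ cells (0.0953% of all genes called), in cultured CD172a+ cells (0.0602%), in spleen CD24+ cells (0.0602%) and in spleen CD172a+ cells (0.0802%). It was also 0 of 10 over all mice (0.0903%) and for the genotype by subset difference (0.0201%). At an unadjusted limma p below 0.05 there were 3, 2, 1 and 2 of the 10 genes in the 4 cell populations in that order, 3 over all mice and 1 for the genotype by subset difference. Of all 19938 genes, 1406, 1322, 901 and 1041 were below that threshold in the same order. Over all mice there were 1207, and 1024 for the genotype by subset difference. For Cd40, Cd80 and Cd83 the genotype differences were small in every population, between -0.11 and 0.11, and their 95% intervals stayed between -0.38 and 0.33. The intervals of Icosl and Tnfsf4 were wider, up to 1.14 and 2.38 log2 units across, so genotype effects on these genes were bounded less tightly.

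**Figure D4:**
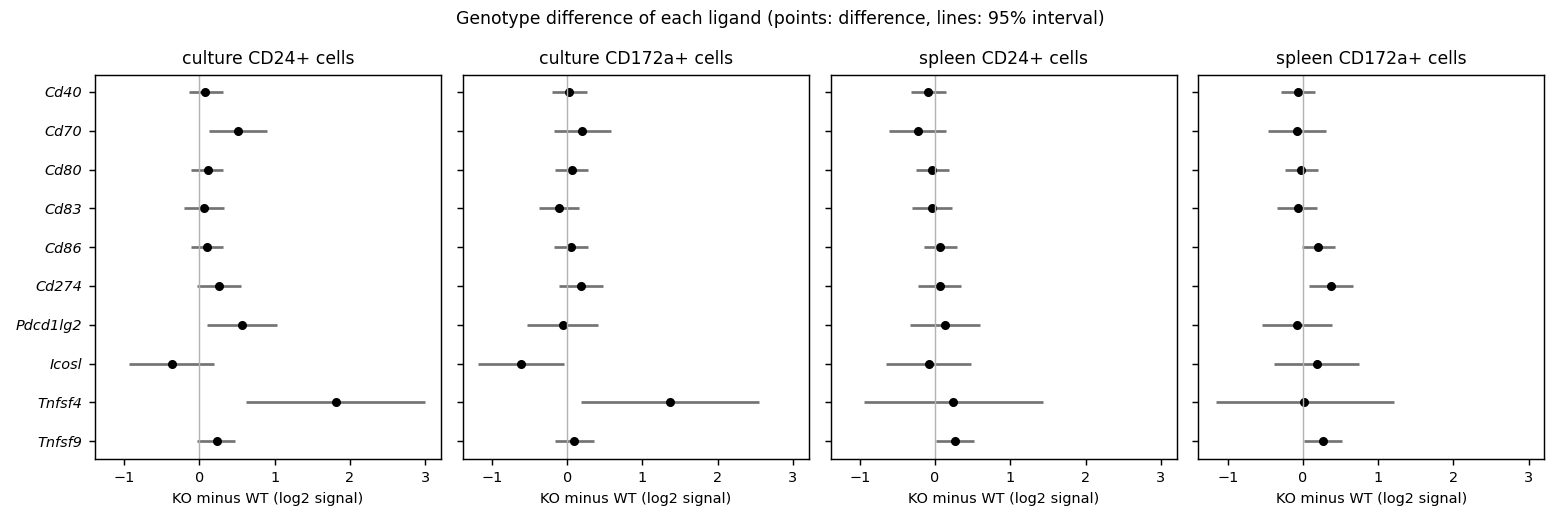
KO minus WT log2 difference of each ligand gene (horizontal axis) in cultured CD24+ and CD172a+ cells and in spleen CD24+ and CD172a+ cells; points are differences of means over 2 and 2 arrays and lines are 95% intervals of the limma fit. Tnfsf4 in cultured CD24+ cells lies farthest from 0 (1.81) with the widest intervals, and no difference was called after adjustment.

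The largest genotype difference was that of Tnfsf4 in cultured CD24+ cells, whose 2 KO arrays (6.68 and 8.76) lay above the 2 WT arrays (5.97 and 5.86). The difference was 1.81 ± 0.54, with a 95% interval from 0.62 to 3.0 (limma adjusted p = 0.573). Cultured CD172a+ cells had a difference of 1.36 (95% interval 0.18 to 2.55, adjusted p = 0.688), also without overlap. Without culture KO replicate 2 these differences were 0.77 and 0.59. Without culture CD24+ KO replicate 1, which leaves KO replicate 2 as a lone KO array assumed to vary like the other groups, Tnfsf4 (2.85, adjusted p = 0.0029) and Cd70 (0.83, adjusted p = 0.00656) were called in CD24+ cells. In that fit 1269 genes were called in all, against 19 with both KO arrays. Over all mice Tnfsf4 was 0.86 higher in KO (limma adjusted p = 0.801), and 1.32 higher without the mouse of culture KO replicate 1 (adjusted p = 2.77e-05).

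Culture KO replicate 2, 1 mouse that gave both a CD24+ and a CD172a+ array, held several of the outlying culture values. In CD24+ cells its value lay outside the range of the other 3 arrays for 8 of 10 ligands and for 62.4% of all genes, and in CD172a+ cells for 7 of 10 ligands and 58.5% of all genes. The same share of all genes was 34.0% to 56.2% for the other cultured CD24+ arrays and 41.5% to 54.6% for the other cultured CD172a+ arrays. Its CD24+ array had Cd70 at 11.39, against 10.39 to 10.76 in the others, and Icosl at 10.27, against 10.85 to 11.27. On the same array the cDC1 marker Xcr1 was 9.58, against 10.41 to 10.87, and Sirpa, the antigen that sorts CD172a+ cells, was 9.17, against 8.36 to 8.43. The cDC1 marker Clec9a was 10.88, against 11.23 to 11.33, and the cDC2 factor Irf4 9.69, against 8.41 to 9.22. Over the full lists, the mean of 12 cDC1 markers on that array was 10.68, against 10.99 to 11.05. The mean of 12 cDC2 markers was 6.82, inside the range of the others (6.78 to 6.87). On the CD172a+ array of this mouse Xcr1 was 6.27, against 6.48 to 6.66, and Clec9a was 6.72, against 7.13 to 7.57. There Sirpa and Irf4 lay inside the range of the others. On the CD24+ array of this mouse the mean of 5 T cell markers was 6.66, against 6.30 to 6.34. On its CD172a+ array that mean was 6.57, against 6.28 to 6.29. The mean of 5 NK cell markers was 5.56, against 5.45 to 5.54, and 5.64, against 5.50 to 5.56. Means of B cell markers and of macrophage and monocyte markers lay inside the range of the others on both arrays. The part of these markers in the ligand values was not tested.

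Besides Tnfsf4 (0.02 to 1.81), the ligand genes with a higher KO mean in all 4 populations were Tnfsf9, Cd274 and Cd86. The shares of all genes that did so, or that had no overlap, were not counted. Tnfsf9 was higher in KO in all 4 populations, by 0.09 to 0.27, and without overlap in 3 of them. Over all mice it differed by 0.21 ± 0.05 (limma adjusted p = 0.62). Cd274 was higher in KO in all 4 populations, by 0.06 to 0.37, and without overlap in 2 of them, both CD172a+. The spleen CD172a+ difference of Cd274 was 0.37 (limma adjusted p = 0.819). Its difference over all mice was 0.22 (limma adjusted p = 0.757). For Cd86 the KO mean was higher by 0.05 to 0.20, without overlap in 1 population, and by 0.11 over all mice (limma adjusted p = 0.821). Pdcd1lg2 was higher in KO in cultured CD24+ cells by 0.56 (adjusted p = 0.633), and Icosl was lower in KO in cultured CD172a+ cells by -0.61 (adjusted p = 0.731). None of these passed the adjusted threshold. The mean of 8 neutrophil markers was 7.23 and 9.01 in KO spleen CD24+ cells, against 7.53 and 6.58 in WT, and its part in the spleen genotype values was not tested.

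The other ligands of the B7, butyrophilin and TNF families, 22 of 23 listed genes, were split between higher and lower signals in culture. In cultured CD24+ cells 10 were higher and 9 lower than in spleen, and in CD172a+ cells 9 were higher and 10 lower, counts that became 13 and 4, and 12 and 7, with array medians subtracted. Over all genes 13.8% were higher and 65.3% lower in CD24+ cells as deposited, and 16.6% and 60.2% in CD172a+ cells. With array medians subtracted, 8823 of all 19938 genes were higher and 6221 lower in CD24+ cells. In CD172a+ cells 9313 were then higher and 6201 lower. The list median was 0.06 in CD24+ cells and -0.06 in CD172a+ cells as deposited, against -0.34 and -0.28 over all genes. Cd200, a ligand that restrains myeloid cells, rose in culture by 3.85 relative to the median gene in CD24+ cells and by 5.22 in CD172a+ cells (limma adjusted p = 6.61e-11 and 3e-12). Tnfsf15, the ligand of the death domain receptor Tnfrsf25, rose by 4.48 and 3.37. Ltb, a lymphotoxin subunit, fell by 1.72 and by 3.60 on the log2 scale. No gene of this list was called between KO and WT in any of the 4 populations.

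Genes of the CD40 and NF-kB pathway, which lies downstream of Cd40 and of LPS, were mostly lower in spleen CD24+ than in spleen CD172a+ cells. Of 14 measured genes of 16 listed, 12 were lower and none was higher in spleen CD24+ than in CD172a+ cells (median -0.53, against 0.03 over all genes, of which 15.6% were higher and 13.4% lower). In culture 3 were higher and 3 lower (11.2% and 13.7% of all genes), and the difference between tissues was called higher for 11 and lower for none (12.5% and 15.7% of all genes). Relb, a subunit of the alternative NF-kB pathway, was 10.34 in spleen CD24+ and 11.19 in spleen CD172a+ cells (limma adjusted p = 1.32e-06). Traf1, an adaptor of TNF receptors, was 10.89 and 11.72 in the same cells (adjusted p = 1.59e-07). In cultured CD24+ cells 13 of 14 were higher than in spleen and none was lower, and in CD172a+ cells 7 were higher and 2 lower, where 13.8% and 16.6% of all genes were higher and 65.3% and 60.2% lower. With array medians subtracted those counts were 14 and 0, and 13 and 1. Under that scaling 8823 and 9313 of all 19938 genes were higher, and 6221 and 6201 lower.

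Most genes of the gamma interferon response and of DC maturation were higher in culture. Of 11 measured gamma interferon response genes of 15 listed, 10 were higher in cultured CD24+ cells (median 2.75) and 9 in cultured CD172a+ cells (median 2.79), and none was lower. Over all genes 13.8% and 16.6% were higher and the medians were -0.34 and -0.28 in these comparisons. Gbp5, an interferon-induced GTPase, rose by 4.81 relative to the median gene in each subset (limma adjusted p = 2.87e-13 and 1.19e-13). All 10 measured DC maturation genes of 12 listed, Cd200 and Relb among them, were higher in each subset, with medians of 2.64 in CD24+ and 3.78 in CD172a+ cells. Fscn1, an actin bundler of mature DCs, rose by 4.10 in CD24+ cells and by 4.42 in CD172a+ cells relative to the median gene. Neither list had a member called between KO and WT.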

How the data were processed

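The 16 Affymetrix Mouse Gene 1.0 ST arrays each held RNA of 1 sorted DC sample. The authors deposited a log2 signal for each probe set. How they corrected background, normalized and summarized is not stated in the labels or the file header, and the unit is inferred from the range of the values. Similar quartiles within a tissue and unlike medians between tissues do not show whether all arrays were normalized together. Of 30177 probe sets, 21789 had 1 gene symbol (21698 named through their Entrez ID), 1621 had several and 6767 had none; the last 2 kinds were left out. The probe set with the highest mean stood for a gene with more than 1, which left 19938 genes.

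limma 3.58.1 in R 4.3.3 fitted 1 mean per group to the 16 arrays (8 residual and 3.95 prior degrees of freedom), for genotype (KO minus WT), subset (CD24+ minus CD172a+, mean of both genotypes), the culture minus spleen difference of the subset differences, and culture minus spleen. Genotype over all mice was fitted to each mouse's mean, and genotype by subset to each mouse's CD24+ minus CD172a+ difference. Tests were 2-sided, with Benjamini-Hochberg adjustment over all genes. The fits were tested on simulated data. Arrays of 1 tissue, genotype and replicate number came from the same mouse, as the labels' mouse numbers show; the correlation over genes of their group-centred values was 0.393 in culture KO, 0.205 in culture WT, 0.202 in spleen KO and -0.096 in spleen WT. Arrays of a mouse were treated as independent in the array fits, and the mouse as a block was an alternative, as were quantile normalization, array medians subtracted, the mean of a gene's probe sets, dim genes left out (no group mean above 7.15), a trended and robust spread, arrays of the tissue alone and leaving out each array or mouse.

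The 10 members, the gene lists and the cell type markers were chosen with earlier results of these data known. All members are named; other genes are the up to 4 with the largest change among those called in a list. The genes given for culture KO replicate 2 were chosen after their values were seen. Promoter sequences are from RefSeq (GRCm38.p6), whose table held 4 of the 10 genes. The positions printed are those of these windows in that build, and chromosomes and gene order are RefSeq's; the labels name no genome build for the array.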

Additional observations from a re-analysis of the deposited data

Results flagged for a closer look

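A test of the difference itself (limma, Benjamini-Hochberg adjusted) called the subset difference, CD24+ minus CD172a+, unlike in culture and in spleen for 8 of the 10 ligand genes. The values below are the culture minus the spleen subset difference on the log2 scale, each over 8 culture and 8 spleen arrays. Pdcd1lg2 had 3.57 and Icosl 1.40, and both had a higher signal in CD24+ cells of all 4 culture mice and a lower one in CD24+ cells of all 4 spleen mice. Cd274 had 1.15 and Tnfsf9 had 0.48, through a lower signal in spleen CD24+ than in spleen CD172a+ cells, a gap that was smaller in culture. Cd83 had 0.39, which was not called after quantile normalization (adjusted p = 0.0564). Tnfsf4 had -2.22 and Cd70 had -0.83, through a lower signal in cultured CD24+ than in cultured CD172a+ cells. Cd86 had -0.61, with opposite signs in the 2 tissues. Groups of 2 arrays were too small for a test of single outlying samples.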

How the results depend on the processing

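The 110 values of the 10 genes in 11 comparisons were recomputed 1580 times under the alternatives. The direction and the side of the threshold were kept in 1534, the call was lost in 36 and gained in 10, and no called value changed sign. A sign changed in 67 recomputed values that were past the threshold in neither setting, 53 of them in genotype comparisons. Counts of ligands called stayed within 1.5 times of those reported except for genotype in cultured CD24+ cells, 0 to 2 when single arrays were left out, and for genotype over all mice, 0 to 1 when single mice were left out. Leaving out both arrays of culture KO replicate 2 was chosen after seeing the data. With the mouse as a replicate block, 7 ligands were called between subsets in culture, 8 in spleen and 8 for the difference between tissues, 10 and 9 between culture and spleen, and 0 between genotypes. Of all 19938 genes, the same fits called 5258, 6101 and 5939, then 15753 and 15303. Between genotypes they called 11 to 19 in the 4 populations. Over all genes, genotype calls in cultured CD24+ cells were 4 from culture arrays alone and 10 to 1269 without single arrays, against 19. In cultured CD172a+ cells they were 7 from culture arrays alone and 7 to 45 without single arrays, against 12, and in spleen CD24+ cells 1 to 35, against 12. Over all mice they were 32 without the replicate block and 9 to 484 without single mice, against 18. With dim genes left out, 9826 and 9697 genes were called between culture and spleen, against 15762 and 15312, since 11784 genes were tested. The 2 arrays in each group limit the precision.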

Other observations

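The listed binding partners of the ligands were Cd40lg, Cd27, Cd28, Ctla4, Pdcd1, Icos, Tnfrsf4, Tnfrsf9 and Rgmb, read on the same arrays. Of 9 measured, 4 were higher and 1 lower in spleen CD24+ than in spleen CD172a+ cells (29.1% of all genes were called), and 1 was higher and 2 were lower in cultured CD24+ than in cultured CD172a+ cells (24.9% of all genes). Ctla4, the inhibitory receptor for CD80 and CD86, averaged 9.41 in spleen CD24+ cells and 6.07 in spleen CD172a+ cells, a difference of 3.34 ± 0.13 (limma adjusted p = 1.72e-09). In culture it averaged 6.93 in CD24+ cells and 6.07 in CD172a+ cells. Icos, the receptor for ICOSL, averaged 6.76 in cultured CD24+ cells and 8.91 in cultured CD172a+ cells (limma adjusted p = 4.06e-08). Cd28 lay between 5.26 and 5.52 in culture and between 5.55 and 5.95 in spleen, and Cd40lg between 5.31 and 5.60 in culture and between 5.15 and 5.34 in spleen. Of the defining markers of T cells, Cd3e was 6.84 to 7.36 in culture and 7.46 to 8.01 in spleen. Cd3d was 5.29 to 5.87 and 7.15 to 7.91, Cd3g 4.83 to 5.74 and 6.45 to 7.66, and Cd5 7.0 to 7.14 and 8.94 to 10.08. Thy1 overlapped, with 6.98 to 7.22 in culture and 6.99 to 7.47 in spleen. The mean of the 5 T cell markers also overlapped between the spleen subsets. It was 7.61 to 8.0 in spleen CD24+ cells and 7.69 to 7.84 in spleen CD172a+ cells. The median culture minus spleen difference of the 5 T cell markers was -1.93 in CD24+ cells and -1.64 in CD172a+ cells as deposited, and the part of T cells in these signals was not tested.

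The genes whose array-median-subtracted signal followed each ligand most closely over the 16 arrays differed between ligands. Pearson's r, a description over arrays that share the culture and spleen split, was 0.996 between Cd274 and Zc3hav1, 0.997 between Cd86 and Nlrc5, 0.996 between Tnfsf9 and Parp9 and 0.998 between Cd70 and Socs2. Cd40 followed Anxa4 and Gbp5 (0.998 each) and also the Y-linked Uty (0.997), which separates culture from spleen mice. Pdcd1lg2 followed Dock4 and Traf1 (0.973 each), Icosl followed Lcp1 (0.972), Tnfsf4 followed Mon1b (0.973) and Cd80 followed Specc1 (0.995). The closest gene to Cd83 was less close (Anp32-ps, 0.917).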
